A study of Homo sapiens with 8 samples.

Results

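Bone morphogenetic protein (BMP) signalling and the ID genes were followed here through 10 genes chosen by name: the ligands BMP2, BMP4 and BMP7, the secreted antagonist GREM1, the inhibitory SMADs SMAD6 and SMAD7, and the targets ID1, ID2, ID3 and ID4. All 10 were found among the 56632 genes of the count table, and 9 of them had a count in at least 1 library, as did 29502 genes in all. The study compared 4 related breast cell lines by sequencing poly A+ RNA from 2 biological replicates of each, 8 libraries in total. M1 is MCF10A, a non-tumorigenic mammary epithelial cell line that became immortal spontaneously. M2 (MCF10AT1k.cl2) was made from MCF10A by transfection of activated T24-HRAS and passage through a xenograft, and M3 (MCF10Ca1h) and M4 (MCF10CA1a.cl1) came from carcinomas that M2 xenografts formed, so M2, M3 and M4 share the HRAS history and each stands for 1 line. All cells were grown in Matrigel as acini for 8 days in medium with 2% horse serum, hydrocortisone, cholera toxin and insulin. The medium of M1 and M2 held EGF at 10 ng/ml and that of M3 and M4 held 0 ng/ml, so in any comparison across these pairs the line and the medium cannot be told apart.

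BMPs are secreted ligands of the TGF-beta superfamily that bind pairs of type I and type II receptor kinases. The receptors phosphorylate SMAD1, SMAD5 and SMAD9, which join SMAD4 and switch on target genes, and the ID genes are among the most direct of these targets. ID proteins have a helix-loop-helix but no DNA-binding region, so they hold E proteins such as TCF3, TCF4 and TCF12 away from DNA, and in mammary epithelium they are known for restraining differentiation. SMAD6 and SMAD7 are themselves induced by the pathway and block it, and GREM1 traps BMP2, BMP4 and BMP7 outside the cell.

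The sequence just upstream of the annotated start was read for the members from RefSeq on GRCh38.p14, where 8 of the 10 were matched with 13 windows of 250 bases. The windows of the ID genes are shown because these are the direct targets among the members, and that of SMAD6 because it alone among the 13 windows holds GTCTAGAC, the palindromic SMAD-binding element, which is its own reverse complement. Capitals mark that element, GGCGCC (a GC-rich site also bound by SMADs, again its own reverse complement) and TATAAA (the TATA box), each searched on both strands. ID1 lies at chr20:31605039-31605288 on the plus strand, ID2 at chr2:8681806-8682055 on the plus strand, ID3 at chr1:23559502-23559751 on the minus strand, ID4 at chr6:19837120-19837369 on the plus strand and SMAD6 at chr15:66701986-66702235 on the plus strand.
ID1: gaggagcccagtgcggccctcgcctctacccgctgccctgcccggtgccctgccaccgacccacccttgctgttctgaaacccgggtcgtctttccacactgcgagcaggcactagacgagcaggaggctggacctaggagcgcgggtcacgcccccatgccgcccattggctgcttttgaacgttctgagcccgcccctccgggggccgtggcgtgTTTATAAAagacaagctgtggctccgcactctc
ID2: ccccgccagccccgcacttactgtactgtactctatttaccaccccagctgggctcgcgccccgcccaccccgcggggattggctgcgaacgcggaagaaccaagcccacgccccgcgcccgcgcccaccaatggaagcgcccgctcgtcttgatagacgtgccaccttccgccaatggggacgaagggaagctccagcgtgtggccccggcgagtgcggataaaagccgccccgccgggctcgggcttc
ID3: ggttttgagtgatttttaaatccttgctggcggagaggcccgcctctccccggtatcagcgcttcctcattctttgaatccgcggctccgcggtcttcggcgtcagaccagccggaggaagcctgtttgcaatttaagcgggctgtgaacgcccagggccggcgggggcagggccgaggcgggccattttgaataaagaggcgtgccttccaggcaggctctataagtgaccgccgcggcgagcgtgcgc
ID4: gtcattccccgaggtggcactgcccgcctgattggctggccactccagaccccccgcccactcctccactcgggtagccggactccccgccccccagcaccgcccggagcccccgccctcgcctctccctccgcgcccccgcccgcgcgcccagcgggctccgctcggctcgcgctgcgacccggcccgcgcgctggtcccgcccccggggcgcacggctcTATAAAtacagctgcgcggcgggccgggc
SMAD6: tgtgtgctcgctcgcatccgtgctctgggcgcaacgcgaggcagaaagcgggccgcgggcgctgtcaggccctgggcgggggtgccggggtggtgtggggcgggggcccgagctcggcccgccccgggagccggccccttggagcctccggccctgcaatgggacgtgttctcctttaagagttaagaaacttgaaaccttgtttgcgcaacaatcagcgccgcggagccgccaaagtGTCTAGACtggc

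In SMAD6 the GTCTAGAC element began 12 bases before the start. It was present in 0.182% of the 35116 RefSeq windows of the same length. TATAAA began 31 bases before the start of ID1, overlapping a copy on the other strand, and 29 bases before the start of ID4. TATAAA was found in 10.7% of all windows, and the windows of ID2, ID3 and SMAD6 did not hold those letters. GGCGCC was found in 16.4% of all windows and, among members, in 1 window of BMP4 and 1 of GREM1. The E-box CANNTG, not capitalised, occurred in 61.8% of all windows and stood in the printed windows of ID2 and ID4. These letters are a description of the windows and were not compared with the expression values.

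Total counts ran from 69669970 to 107350344 per library, and levels are given as CPM, counts scaled to the size of the library after TMM normalisation. The 7 markers of mammary basal epithelium were at or above 1 CPM in at least 1 library and summed to 7110 to 15355 CPM. Of 8 fibroblast markers, 6 stayed under 1 CPM in all libraries with COL1A2 at 0, as did 2 of 3 endothelial and 2 of 4 leukocyte markers, with CD3E at 0. The other markers of these lists were present. DCN reached 60.2 CPM in M2 and COL1A1 25.5 CPM in M1. KDR reached 3.04 CPM and CD14 24.6 CPM in M1, and CD68 reached 51.4 CPM in M4. The supplementary expression table of the study assigned 6 of the 8 libraries as the sample labels do. Its values for M2 replicate 1 followed the counts of M1 replicate 2 as labelled (r = 0.985 over 148 genes, which are not independent replicates), and its values for M1 replicate 2 followed those of M2 replicate 1 as labelled (r = 0.977). The sample labels were used, and results are also given with those 2 libraries exchanged or left out. The 2 libraries labelled M1 also differed much more (chi-square per degree of freedom of 253) than those of M2 (6.90), while the values were 319 in M3 and 122 in M4.

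A gene was called when edgeR's quasi-likelihood test over all 8 libraries gave a Benjamini-Hochberg adjusted p under 0.05 over the 18431 genes tested and a log2 fold change beyond 1 in either direction. Of the 10 members, 9 passed the filter on low counts and were tested in all 6 comparisons. BMP7 passed it only through its levels in M3 and M4, and ID4 did not reach it in M4. Calls of ID4 in M4 therefore add nothing to its counts. With M1 as the reference, 1 of the 4 ID genes was called lower in M3 (ID2), beside 13.5% of all genes called in either direction. In M4, 3 of the 4 were called lower (ID2, ID3 and ID4), beside 20.7% of all genes. The ID2 calls did not hold under every omission of 1 library. The ID3 call ended without any one of 7 libraries, and its log2 fold change was -0.57 without M1 replicate 1. ID1 was called in neither line, and the ligand BMP7 rose in both.

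BMP7, a ligand best known from kidney and skeletal development, displayed the widest range of the members. Its counts were 4 and 2 for M1, 0 and 0 for M2, 647 and 1045 for M3, and 397 and 518 for M4, which is 8.17 and 12.0 CPM in M3 and 3.50 and 6.64 CPM in M4. Both carcinoma lines stood above M1 and M2 in every library, and M4 lay below M3. From summed counts, the ratio of M3 to M1 was 279 (95% exact counting interval 128 to 762) and that of M4 to M1 was 131 (60.0 to 358), and both intervals cover counting error only. Against M2, where no read was counted, BMP7 was at least 584-fold higher in M3 and at least 274-fold higher in M4, taking 3 counts over the M2 libraries as the floor.
BMP7 was called higher in all 4 of these comparisons (edgeR adjusted p = 0.000722 for M3 and 0.000530 for M4 against M1, 0.00156 for M3 and 0.000631 for M4 against M2). Since it entered the test only through the M3 and M4 libraries, in which it is high, these calls add nothing to the counts above. It was also called in all 4 when no filter on low counts was applied. The difference between M4 and M3 (log2 fold change -0.99 ± 0.41 SE, edgeR adjusted p = 0.145) did not pass the test. BMP7 (GRCh37 chr20:55743809-55841697, minus strand) and ID1 (chr20:30193086-30194318, plus strand) lie on the long arm of chromosome 20. The 255 tested protein-coding genes of chromosome 20 beyond 30 Mb had a median log2 fold change of -0.26 in M3 and -0.16 in M4 against M1.

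BMP2, a ligand that acts through BMPR1A and BMPR2, measured 6.88 and 1.67 CPM in M1, 1.51 and 1.65 CPM in M2, 7.01 and 11.1 CPM in M3, and 12.6 and 10.9 CPM in M4. Both M3 and M4 libraries stood above every M1 and M2 library, with M1 replicate 1 close to the lower M3 library. BMP2 rose in M4 against M2 (log2 fold change 2.90 ± 0.61 SE, edgeR adjusted p = 0.0145), a call that ended without M2 replicate 1, M2 replicate 2 or M4 replicate 1 (adjusted p = 0.0635 to 0.121). In M3 against M2 the difference was 2.52 ± 0.60 with an edgeR adjusted p of 0.0542, and in M4 against M1 it was 1.46 ± 0.57 with an adjusted p of 0.0893. Without M1 replicate 1, BMP2 was called higher in both M3 (2.45, edgeR adjusted p = 0.0106) and M4 (2.83, adjusted p = 0.00378) against M1, whereas without M1 replicate 2 the differences were 0.40 (adjusted p = 0.448) and 0.78 (adjusted p = 0.150).

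BMP4, a ligand closely related to BMP2, was near 1 CPM or lower outside M3. Its levels were 0.459 and 1.00 CPM in M1, 0.363 and 0.384 CPM in M2, 2.41 and 3.11 CPM in M3, and 0.608 and 0.717 CPM in M4. The M3 libraries were the highest and did not overlap any other line, the M2 libraries were the lowest, and M4 lay between the M1 replicates. BMP4 rose in M3 against M1 (log2 fold change 1.92 ± 0.46 SE, edgeR adjusted p = 0.0233) and against M2 (2.88 ± 0.48, adjusted p = 0.0165), and it fell in M4 against M3 (log2 fold change -2.06 ± 0.46 SE, adjusted p = 0.0231). None of these calls held under every omission of 1 library. The first ended without M1 replicate 1, either M2 replicate or M3 replicate 2 (edgeR adjusted p = 0.0534 to 0.0893), the second without either M2 replicate or M3 replicate 2 (0.0603 to 0.182) and the third without any one of the M2, M3 or M4 libraries (0.0540 to 0.128). With the 2 libraries exchanged the adjusted p values were 0.0717, 0.139 and 0.0773.

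GREM1, an antagonist secreted mainly by stromal cells, had 0 counts in all 8 libraries, which allows up to 0.0157 CPM in M4 and up to 0.0182 CPM in M1 (3 counts over the libraries of a line). It was not tested. GREM1-AS1, on the opposite strand, was also at 0 in every library.

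SMAD6, an inhibitory SMAD that favours the BMP branch, measured 5.75 and 2.04 CPM in M1, 1.14 and 0.995 CPM in M2, 1.20 and 1.54 CPM in M3, and 0.211 and 0.743 CPM in M4. Both M1 libraries were above every other library and both M4 libraries below. SMAD6 fell in M4 against M1 (log2 fold change -3.04 ± 0.70 SE, edgeR adjusted p = 0.0149), and this call ended without M1 replicate 1 (adjusted p = 0.0630), without M4 replicate 1 (0.0650) and with the 2 libraries exchanged (0.0917). The differences of M2 and M3 from M1, at -1.87 ± 0.67 and -1.51 ± 0.66, did not pass (adjusted p = 0.149 and 0.140, edgeR).

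SMAD7, which blocks both the BMP and the TGF-beta branch, was the steadiest member. Its libraries ranged only from 3.30 CPM in M4 to 8.97 CPM in M3, with 7.90 and 5.33 CPM in M1, 5.40 and 6.17 CPM in M2, 6.77 and 8.97 CPM in M3, and 3.30 and 4.97 CPM in M4. The M4 libraries were the lowest and did not overlap another line. None of its 6 differences passed the test, the nearest being M4 against M3 at -0.93 ± 0.32 (edgeR adjusted p = 0.0830).

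**Figure D1:**
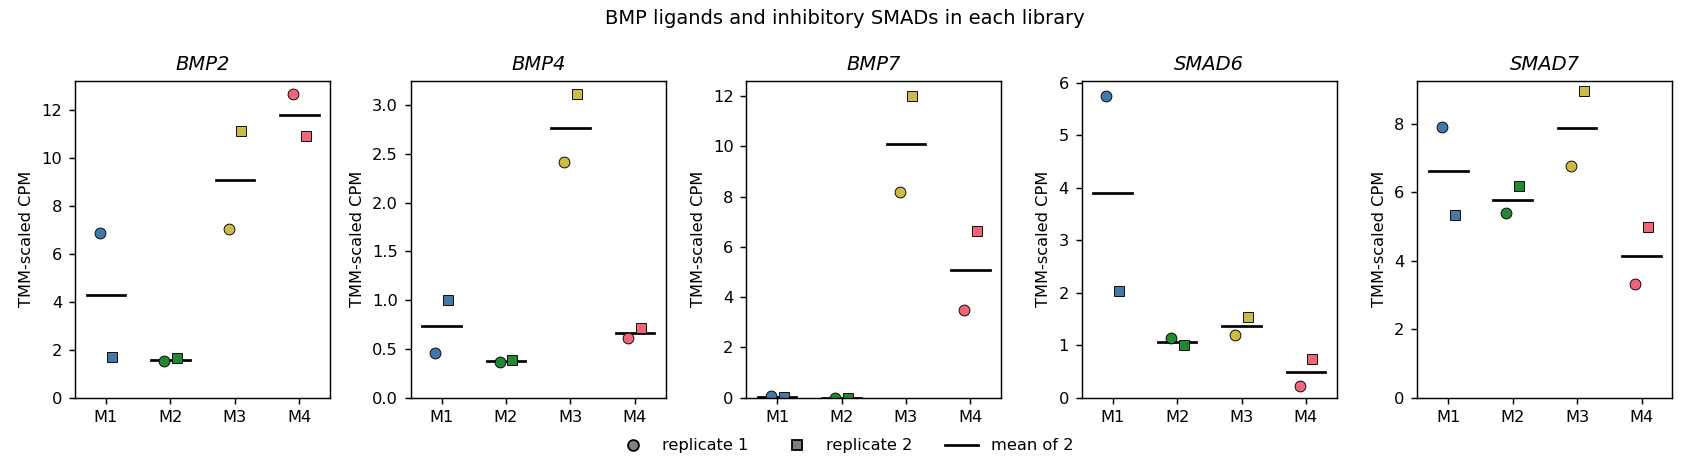
TMM-scaled CPM (linear axes from 0) of BMP2, BMP4, BMP7, SMAD6 and SMAD7 in both replicates of each line, with a bar at their mean. BMP7 stands at or near 0 in M1 and M2 and between 3.50 and 12.0 CPM in M3 and M4, and BMP4 peaks in M3.

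The ID genes carried most of the members' RNA. Per kilobase of annotated exon, the line means of ID1 ran from 70.9 CPM per kb in M4 to 168 in M1 and those of ID3 from 51.3 in M4 to 165 in M1. ID2 ran from 2.66 to 18.97 CPM per kb and ID4 from 0.0156 to 0.247, with M4 lowest and M1 highest for both. On the same scale SMAD7 reached 1.99, BMP2 3.32, BMP7 1.86, BMP4 0.892 and SMAD6 0.455 in their highest line. For all of these bulk values, fewer cells with the transcript and less transcript per cell cannot be told apart.

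ID2, the ID gene linked most closely to alveolar development of the mammary gland, measured 68.7 and 15.3 CPM in M1, 10.1 and 9.94 CPM in M2, 7.72 and 5.95 CPM in M3, and 5.15 and 6.61 CPM in M4. Both M1 libraries stood above all others, both M2 libraries came next, and M3 and M4 overlapped. ID2 fell in M3 against M1 (log2 fold change -2.62 ± 0.62 SE, edgeR adjusted p = 0.0248) and in M4 against M1 (-2.84 ± 0.62, adjusted p = 0.0137). The M3 call ended without any one of the M2 or M3 libraries (adjusted p = 0.0626 to 0.127) and the M4 call without either M4 library (0.0732 to 0.0839). With the 2 libraries exchanged the edgeR adjusted p values were 0.155 and 0.0653. Without M1 replicate 1 both calls held with smaller differences, -1.16 in M3 (adjusted p = 0.0312) and -1.36 in M4 (adjusted p = 0.0114).

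ID3 is, like ID1, an immediate SMAD target, and was 378 and 115 CPM in M1, 176 and 170 CPM in M2, 93.6 and 85.2 CPM in M3, and 69.5 and 84.0 CPM in M4. All M3 and M4 libraries lay below all M1 and M2 libraries, whereas M2 fell between the M1 replicates. ID3 fell in M4 against M1 (log2 fold change -1.68 ± 0.47 SE, edgeR adjusted p = 0.0324). This call held when M1 replicate 2 was left out and ended without each of the other 7 libraries, where the adjusted p was 0.0466 to 0.149 and, without M1 replicate 1, the log2 fold change was -0.57. The differences of M3 from M1 (-1.46 ± 0.47) and of M4 from M2 (-1.18 ± 0.47) did not pass (edgeR adjusted p = 0.0647 and 0.112). Without M1 replicate 2, the M3 difference from M1 was called at -2.07, and without M1 replicate 1 it was -0.36 (edgeR adjusted p = 0.197).

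ID1, long studied in breast cancer for its link with invasion, measured 355 and 58.9 CPM in M1, 95.6 and 89.0 CPM in M2, 141 and 76.5 CPM in M3, and 83.9 and 90.8 CPM in M4. The M1 libraries were the highest and the lowest of all 8, so every other line lay between them. None of the 6 comparisons of ID1 passed the test (edgeR adjusted p from 0.219 to 0.948). Its direction against M1 turned with the library used: in M4 against M1 the log2 fold change was -1.25 ± 0.70 with both M1 libraries, 0.59 without M1 replicate 1 and -2.02 without M1 replicate 2. For M3 the values without replicate 1 and without replicate 2 were 0.88 and -1.71, and for M2 they were 0.65 and -1.94.

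ID4, the ID gene most restricted to the basal mammary lineage, was the least abundant. Its counts were 97 and 61 for M1, 19 and 13 for M2, 35 and 36 for M3, and 5 and 6 for M4, equal to 1.17 and 0.744, 0.187 and 0.185, 0.442 and 0.413, and 0.0441 and 0.0769 CPM. No 2 lines overlapped, and the order was M1, M3, M2 and M4. ID4 passed the filter on low counts only through M1, M2 and M3, where it is higher than in M4. Its calls in M4 therefore add nothing to these counts. ID4 fell in M4 against M1 (log2 fold change -3.99 ± 0.58 SE, edgeR adjusted p = 0.00237), a call that held without each library in turn and ended with the 2 libraries exchanged (adjusted p = 0.0872). It also fell in M4 against M3 (-2.82 ± 0.57, edgeR adjusted p = 0.0166) and in M2 against M1 (-2.36 ± 0.52, adjusted p = 0.0460). The M4 against M3 call ended without either M4 library (edgeR adjusted p = 0.0531 to 0.102). The M2 against M1 call held without M1 replicate 2 and ended without each of the other 7 libraries (0.0562 to 0.325). None of the 3 steps between neighbours in the order passed (edgeR). M3 differed from M1 by -1.16 ± 0.49 (adjusted p = 0.131), M3 from M2 by 1.20 ± 0.51 (adjusted p = 0.221) and M4 from M2 by -1.63 ± 0.57 (adjusted p = 0.0775).

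**Figure D2:**
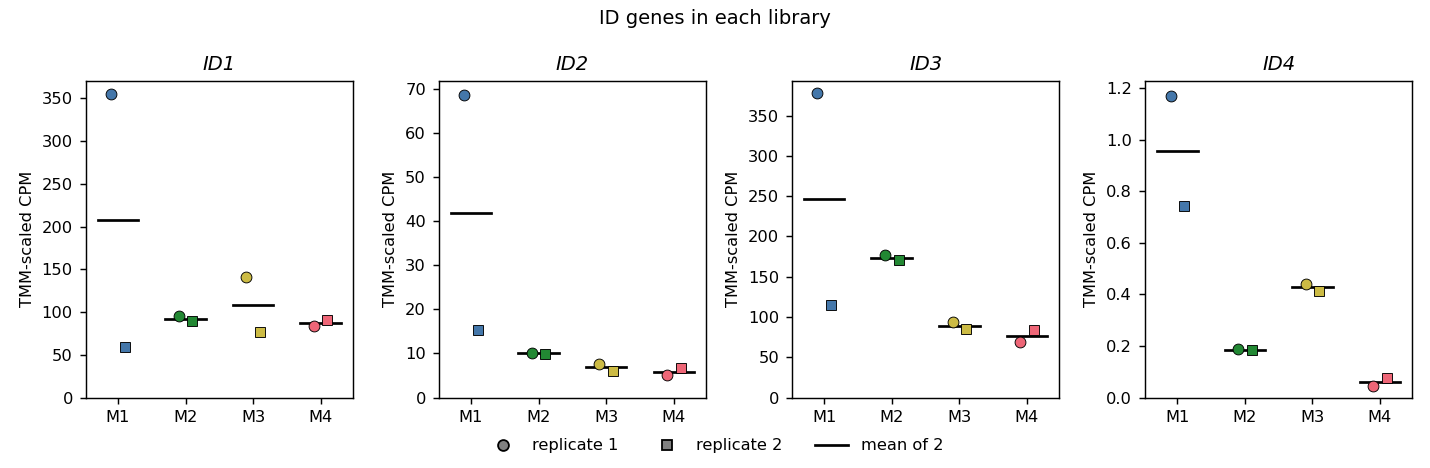
TMM-scaled CPM (linear axes from 0) of ID1, ID2, ID3 and ID4 in both replicates of each line, with a bar at their mean. M1 replicate 1 is the highest library for all 4 genes, at 355, 68.7, 378 and 1.17 CPM, and M1 replicate 2 is the lowest of all for ID1 at 58.9 CPM.

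Counted by comparison, the members called differed between lines. In M2 against M1, where both media held EGF, 1 of 9 tested members was called (ID4, lower), against 3.37% of all genes tested. In M3 against M1 there were 3 of 9 (ID2 lower, BMP4 and BMP7 higher), against 13.5% of all genes, and in M4 against M1 there were 5 of 9 (ID2, ID3, ID4 and SMAD6 lower, BMP7 higher), against 20.7%. In M3 against M2 there were 2 of 9 (BMP4 and BMP7, both higher) against 4.15%, and in M4 against M2 again 2 of 9 (BMP2 and BMP7, both higher) against 13.9%. BMP7 entered the test only through M3 and M4, where it is high, so its part in these tallies adds nothing to its counts. Setting BMP7 aside leaves BMP4 alone in M3 against M2 and BMP2 alone in M4 against M2. It leaves ID2 and BMP4 in M3 against M1 and the lower members in M4 against M1. ID4 did not reach the filter on low counts in M4, so its part in the M4 tallies adds nothing to its counts either. In M4 against M3, both grown without EGF, there were 2 of 9 (ID4 and BMP4, both lower) against 10.3%. These shares of all genes also moved with single libraries. Leaving out 1 library in turn, edgeR called 0 to 876 genes in M2 against M1 and 83 to 1073 in M3 against M2, with the lowest counts of both without either M2 library, and 927 to 2834 in M4 against M2, lowest without M2 replicate 1. In M4 against M3 it called 598 to 2197, lowest without M4 replicate 1, and the ranges were 1752 to 2298 in M3 and 2425 to 3742 in M4 against M1. The comparisons with M1 share the M1 libraries, so their values are not independent. The median log2 fold change of the 9 members against M1 was -1.44 in M2, -0.93 in M3 and -1.25 in M4, beside -0.04, -0.02 and -0.02 over all genes tested. These medians depend on M1 replicate 1 and were not taken without it. Without that library, ID1, ID3 and SMAD7 turned to 0.65, 0.59 and 0.12 in M2, and ID1 to 0.88 in M3 and 0.59 in M4. No other member turned. In M3 without that library, ID1, BMP2, BMP4, BMP7 and SMAD7 lay above 0, at 0.88, 2.45, 1.47, 8.62 and 0.57. ID2, ID3, ID4 and SMAD6 lay below 0, at -1.16, -0.36, -0.79 and -0.57. The negative median in M3 therefore rests on M1 replicate 1. The M2 median also includes BMP7 at -4.72, from 0 counts in M2 and 6 in M1. With the 2 libraries exchanged, the members called against M1 numbered 0 in M2, 1 in M3 and 2 in M4, and with both left out 0, 5 and 6.

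**Figure D3:**
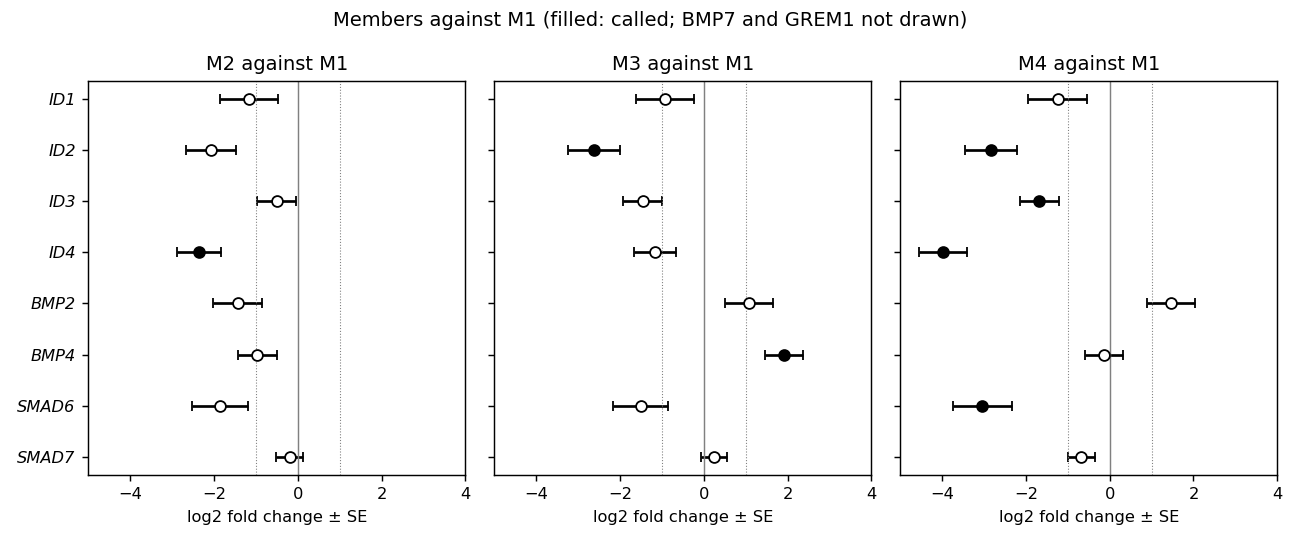
Log2 fold change with its standard error (horizontal axis) of 8 members in M2, M3 and M4 against M1, filled where called by edgeR; BMP7 and GREM1 are not drawn because of counts at or near 0 in M1. With both M1 libraries, the 4 ID genes lie left of 0 in all 3 panels, and BMP4 is called only in M3, at 1.92.

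M1 replicate 1 stood apart from M1 replicate 2 in the same genes. Its level was 6.03 times that of replicate 2 for ID1, 4.49 times for ID2, 3.29 times for ID3, 4.12 times for BMP2, 2.82 times for SMAD6 and 1.58 times for ID4, and BMP4 went the other way at 0.459. Of all 18431 genes tested, 2.72% differed more than ID1 between the M1 libraries, 4.31% more than ID2 and 6.99% more than ID3. In the other lines the ratio of replicate 1 to replicate 2 for ID1 was 1.07 in M2, 1.84 in M3 and 0.923 in M4.
Ratios in M1 were mixed among the 7 other transcription factors listed as BMP-induced, at 67.0 for DLX3, 25.5 for ATOH8, 2.48 for DLX5, 2.06 for MSX2, 1.18 for MSX1, 0.808 for RUNX2 and 0.616 for HEY1. Among the signal-carrying SMADs, SMAD9 was at 2.30 and SMAD1, SMAD5 and SMAD4 were at 0.950, 1.10 and 1.01. The sum of the 8 fibroblast markers was 60.4 CPM in M1 replicate 1 and 9.89 CPM in M1 replicate 2, nearly all of it DCN (34.1 and 1.62 CPM) and COL1A1 (25.5 and 6.71 CPM), and it was 73.1 to 75.0 CPM in M2. The part of these markers in the members' difference was not tested.

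**Figure D4:**
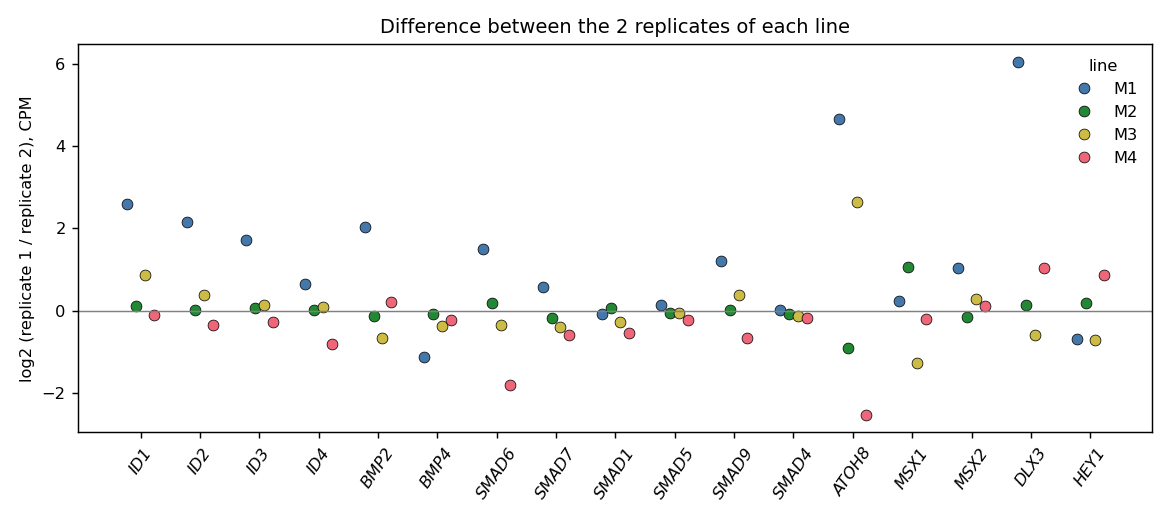
Log2 ratio of replicate 1 to replicate 2 in each line (points, coloured by line) for 8 members, the receptor-activated SMADs with SMAD4, and BMP-induced transcription factors. The M1 points of ID1, ID2, ID3 and BMP2 lie well above 0, at ratios of 3.29 to 6.03, and DLX3 is the highest at 67.0.

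The wider pathway was read from a list of other BMP pathway genes, of which 59 were found in the table and 44 were tested. In M2 against M1 none was called by edgeR, while DESeq2 called 2 and edgeR without the filter on low counts called 4. In M3 against M1, 7 rose and 3 fell, beside 13.5% of all genes called in either direction. In M4 against M1, 8 rose and 9 fell, beside 20.7%, and in M4 against M2, 7 rose and 6 fell, beside 13.9%. Their median log2 fold change in M4 against M1 was 0.08, beside -0.02 over all genes tested. The calls counted here include BMP5, GDF5 and CHRDL1, which passed the filter on low counts only through lines in which they are high. They also include ATOH8 and DLX3, neither of which reached that filter in an M4 library. The count in M4 against M1 dropped to 11 without M4 replicate 1, without M4 replicate 2 or with the 2 libraries exchanged. That in M3 against M1 dropped to 4 without M3 replicate 2 and to 2 with the exchange, and that in M4 against M2 to 4 without M2 replicate 1 and 5 without M2 replicate 2.

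Among the ligands that are not members, BMP5 fell from 1.84 and 3.51 CPM in M1 to 0 and 0.0128 in M4 (edgeR adjusted p = 0.000734), while BMP6 rose from 0.423 and 0.329 to 2.11 and 5.21 CPM (adjusted p = 0.00775) and BMP8B from 0.870 and 0.817 to 3.17 and 7.28 CPM (adjusted p = 0.00679). GDF5, a ligand of joint development, was called lower from under 0.2 CPM in M1. BMP5 and GDF5 passed the filter on low counts only through lines in which they are high, so their calls add nothing to their levels. M4 thus held more BMP7, BMP6 and BMP8B RNA than M1 and less BMP5. Of the 10 tested receptors and co-receptors, ENG, a co-receptor, rose in M4 from 17.2 and 17.2 to 46.1 and 48.9 CPM, and NEO1, a receptor for repulsive guidance molecules that assist BMP signalling, fell from 43.1 and 66.1 to 17.0 and 14.6 CPM. BMPR1A and BMPR2, through which BMP2 and BMP4 act, were not called. BMPR1A was 24.9 and 31.0 CPM in M1 and 16.0 and 23.5 in M4, and BMPR2 was 46.7 and 43.6 in M1 and 28.7 and 38.6 in M4. BMPR1B, another BMP receptor, was called higher in M3 against M1 (log2 fold change 1.39 ± 0.32 SE, edgeR adjusted p = 0.0207). Its mean was 3.17 CPM in M1, 8.31 in M3 and 5.42 in M4, where it was not called against M1.

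Of the 4 signal-carrying SMADs, SMAD9 alone was called in M4 against M1, falling from 5.87 and 2.55 to 0.908 and 1.45 CPM (edgeR adjusted p = 0.0197). SMAD1 was 21.1 and 22.2 CPM in M1 and 9.47 and 13.8 in M4, short of the fold threshold (log2 fold change -0.90 ± 0.21 SE, edgeR adjusted p = 0.0158). SMAD5, the most abundant of them per library, was 69.6 and 63.3 CPM in M1 and 63.8 and 74.9 in M4. Secreted antagonists moved in both directions. NOG, which binds BMP2, BMP4 and BMP7, rose from 1.56 and 1.84 to 6.70 and 6.06 CPM (edgeR adjusted p = 0.00419) and FST, an activin and BMP binder, from 0.350 and 2.50 to 133 and 18.7 CPM (adjusted p = 0.0103). FSTL1, a follistatin-like modulator, rose from 17.7 and 16.7 to 49.8 and 32.2 CPM, and SOSTDC1, an antagonist of BMP and WNT ligands, fell from 4.57 and 35.0 to 0.687 and 0.461 CPM.

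The ubiquitin ligases that mark BMP-activated SMADs and receptors for destruction both rose in M4 against M1, SMURF1 from 43.4 and 40.6 to 92.4 and 94.5 CPM (edgeR adjusted p = 0.000885) and SMURF2 from 21.2 and 24.1 to 63.2 and 60.1 CPM (adjusted p = 0.000453). In both genes the groups were separate and the replicates close. SMURF2 also rose in M3 against M1 and in both carcinoma lines against M2. Of 7 other BMP-induced factors, ATOH8, DLX3 and HEY1 were called lower in M4, ATOH8 from 12.4 and 0.488 to 0.0176 and 0.102 CPM, DLX3 from 4.09 and 0.0610 to 0.0264 and 0.0128, and HEY1 from 2.01 and 3.26 to 0.749 and 0.410. The size of the ATOH8 and DLX3 differences rests on M1 replicate 1. Neither gene reached the filter on low counts in an M4 library, so their calls in M4 add nothing to their levels. DLX3 in M1 replicate 2 lay below both M2 libraries (0.157 and 0.142 CPM). Of the E proteins that ID proteins bind, TCF4 fell from 14.8 and 18.2 to 3.19 and 5.73 CPM (edgeR adjusted p = 0.00403), while TCF3 was 74.0 and 97.3 in M1 and 79.1 and 93.7 in M4.

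In M3 against M2, 4 of the 44 pathway genes were called, BMP5 (lower), NOG, SMURF2 and CHRDL1 (higher), beside 4.15% of all genes. In M4 against M3 there were 6 of 44, BMP6 (higher), GDF11, NEO1, CHRDL1, SOSTDC1 and TCF4 (lower), beside 10.3% of all genes, a share close to that of the list. GDF11 and CHRDL1 were named after their values were seen. CHRDL1, an antagonist related to chordin, was 0.796 and 0.861 CPM in M3 and at most 0.0441 CPM in every other library. CHRDL1 passed the filter on low counts only through M3, and BMP5 only through M1 and M2, the lines in which each is high. Their calls therefore add nothing to their levels.

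**Figure D5:**
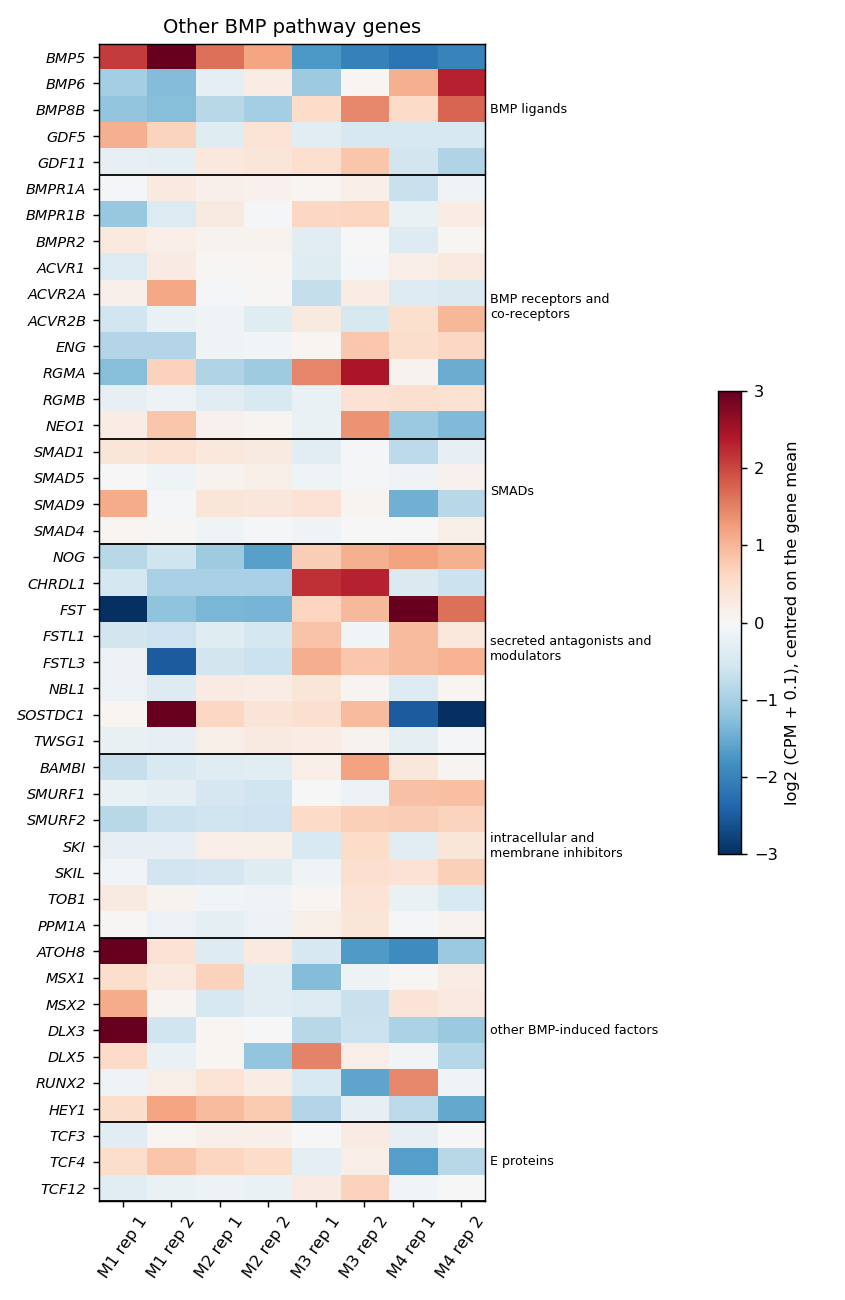
Heat map of the 44 tested pathway genes, grouped by role, in the 8 libraries, as log2(CPM + 0.1) centred on each gene's mean. SMURF2 and NOG are above their means in M3 and M4, BMP5 is above its mean in M1 and M2, and ATOH8 and DLX3 are highest in M1 replicate 1.

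Opposite-strand RNA was checked for the members because whether the counting used strand is not given in the sources used here. ID2-AS1, which shares 145 exon bases with ID2, had 5 to 15 counts per library, and LNC-LBCS, which shares none with ID4, had 0 to 12. Neither count approaches that of ID2 (516 to 5681), while the ID4 counts of 5 to 97 overlap the LNC-LBCS range. BMP7-AS1 was at 0 in every library. BMP4 had the largest opposite-strand exon overlap, 506 bases shared with the lncRNA ENSG00000287156. That lncRNA has no row in the count table, and its part in the 27 to 271 counts of BMP4 was not tested. Whether sense and antisense reads were counted apart in these values is therefore not known.

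For the 3 most abundant members the nearest patterns were sought over the 8 libraries by the root mean square difference of gene-centred log2 CPM among the 18431 genes tested. Nearest to ID3 were ZNF296 (0.275), MEIS1 (0.283) and DANCR (0.285). FERMT2 (0.301), PTGES (0.339) and METRN (0.352) were nearest to ID1, and all of them share the high M1 replicate 1. SMPDL3A (0.249) was nearest to ID2 among genes with a symbol.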

How the data were processed

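Poly A+ RNA of 8 libraries was sequenced as paired-end reads. The authors deposited expected counts per gene; the sources name Trimmomatic, STAR, Picard and RSEM on hg19, without versions. Of the values, 12.8% were not whole numbers, and all were rounded before testing; the 80 member values were whole. Genes were matched to a GENCODE annotation on GRCh37 (94.7% of those with a count), which also gave exon lengths. Differences were fitted in R 4.3.3 by edgeR 4.0.16, using TMM, filterByExpr and robust quasi-likelihood estimation with a coefficient for each line, all 8 libraries sharing the spread; the 18431 p-values were adjusted by Benjamini-Hochberg. The code was tested on simulated data. Alternatives were DESeq2 1.42.0, its size factors, no filter on low counts, a replicate block, only the lines compared, no minimum fold change, each library left out, the library assignment of the study table and, chosen after seeing the data, omission of the 2 libraries it assigns differently. At these depths a gene with 10 or fewer counts carries a large counting error. The p-values measure the spread between replicate cultures, 2 per line, pooled for each gene over all 8 libraries. The close M2 replicates (chi-square per degree of freedom of 6.90, beside 253 in M1, 319 in M3 and 122 in M4) therefore also enter comparisons without M2. All 10 members are named, and of each role in the pathway list the genes called in M4 against M1 or, if none, the most abundant. The receptors BMPR1A, BMPR1B and BMPR2, SMAD1, SMAD4, SMAD5, TCF3 and the BMP-induced factors not called were named for context after their values were seen. GDF2 and GDF10 were not analysed here. Members and lists were chosen with earlier results of these data known. Promoter windows came from RefSeq on GRCh38.p14, and figures were drawn with matplotlib.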

Additional observations from a re-analysis of the deposited data

How the results depend on the processing

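Scaling by DESeq2-type size factors left all 54 member differences on the same side of the threshold. DESeq2 moved 7 past it, called 4 members in M2 against M1 and 1324 genes there (622 in edgeR). Without the filter on low counts, 13 more member differences passed, and 6 members were called in both M2 and M3 against M1. In fits of only the lines compared, 0, 1 and 2 members were called in M2, M3 and M4 against M1. With the study table's assignment, 0, 1 and 2 were called in these, 1 in M3 against M2 and 0 in M4 against M3. Reversed then were BMP4 in M2 (0.75) and M4 (0.69) against M1 and in M4 against M2 (-0.067), ID4 (-0.12) and SMAD6 (-0.15) in M3 against M2, and ID1 in M4 against M2 (0.24). Without the 2 libraries assigned differently, 0 members were called in M2 and 5 in M3 against M1 and 1 in M3 against M2, and BMP4 in M4 (0.53) and SMAD7 in M3 (-0.0014) against M1 reversed. Leaving out 1 library gave 0 to 5 members called in M2, 1 to 5 in M3 and 2 to 6 in M4 against M1, 1 to 3 in M3 and in M4 against M2, and 0 to 2 in M4 against M3. Over these omissions, directions turned as follows: ID1 ran from -1.94 to 0.65 in M2, -1.71 to 0.88 in M3 and -2.02 to 0.59 in M4 against M1, from -0.27 to 0.61 in M3 against M2 and from -0.69 to 0.19 in M4 against M3; ID3 from -1.12 to 0.59 and SMAD7 from -0.45 to 0.12 in M2 against M1; SMAD7 from -0.0024 to 0.57 in M3 against M1; BMP4 from -0.58 to 0.53 in M4 against M1. Among other pathway genes, omissions gave 0 to 3 calls in M2, 4 to 12 in M3 and 11 to 18 in M4 against M1, 0 to 6 in M3 and 4 to 14 in M4 against M2, and 1 to 9 in M4 against M3. Over all genes, the exchange of libraries gave 0 calls in M2 (622 as labelled), 219 in M3 (2494) and 1559 in M4 (3821) against M1, 214 in M3 against M2 (765) and 830 in M4 against M3 (1897). The absence of a filter gave 1788 calls in M2 against M1, 1880 in M3 against M2 and 2916 in M4 against M3, and DESeq2 gave 1480 in M3 against M2. The cause was not tested.

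With a replicate block, 0 members were called in M2 against M1 (ID4 adjusted p = 0.0727 in edgeR), ID3 in M4 against M1 had an adjusted p of 0.0527, and no other member call changed. With the sample labels, the correlation of same-numbered replicate deviations was -0.02 to 0.12, highest in M4 against M3, with 2 pairs a comparison. It was not computed with the 2 libraries exchanged, so it cannot decide whether the numbers pair the samples.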
